A study of Mus musculus with 17 samples.

Results

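MHC class I molecules present peptides from inside a cell to CD8 T cells, and 10 genes of that pathway are described here across 7 groups of mouse embryonic fibroblasts (MEFs). The 10 symbols were listed by function: the heavy chains H2-K1 and H2-D1, their light chain B2m, the peptide transporter Tap1 and Tap2, the loading protein Tapbp, the immunoproteasome subunits Psmb8, Psmb9 and Psmb10, and the transcriptional activator Nlrc5. By Ensembl ID, 9 of the 10 have a line in both deposited tables, which hold 37576 genes for the immortalized set and 33440 for the Ras set. Psmb9 (ENSMUSG00000096727) had no matching line, so its expression was not analysed here.

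The study compared MEFs of E13.5 C57bl/6 embryos that were +/+, +/- or -/- at Usp28, the gene of a deubiquitinase. All groups were immortalized with a retrovirus for a hairpin RNA against p19ARF. The immortalized set had 3 libraries in each of the genotypes +/+, +/- and -/-, with neither Ras nor an overexpressed product. The Ras set had 2 libraries in each of 4 groups, all transformed with activated HRas: +/+, +/- and -/- with a GFP vector, and +/+ with a USP28 vector. The sources used here do not say how many embryos or separately immortalized lines stand behind a genotype, so a genotype and a line cannot be told apart. The p-values then measure the spread between libraries only.

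In the class I pathway, the proteasome cuts proteins into peptides, and the Psmb8, Psmb9 and Psmb10 subunits replace constitutive catalytic subunits in the immunoproteasome. Tap1 and Tap2 carry peptides into the endoplasmic reticulum, where Tapbp (tapasin) holds the empty heavy chain and B2m close to the transporter. Fibroblasts express the pathway at a low basal level, interferons raise it, and Nlrc5 drives transcription of many of its genes.

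Of the 10 genes, 7 lie on chromosome 17, most in the MHC region, and the adjoining genes Psmb9, Tap1, Psmb8 and Tap2 span 34335 bases there (GRCm38). Psmb10 and Nlrc5 lie on chromosome 8, and B2m lies on chromosome 2. RefSeq promoter windows (build GRCm38.p6, 250 bases before to 50 bases after an annotated start) were found for 8 of the 10 genes and searched on both strands for 4 motifs. These were the kappaB site of the class I enhancer (GGGG followed by ATTCCC), the core of the interferon-stimulated response element (ISRE; GAAA, any pair of bases, GAAA), the gamma-activated site (GAS; TTCNNNGAA) and the inverted CCAAT box (ATTGG). The stretches of H2-K1, H2-D1 and B2m are printed because these genes encode the 2 heavy chains and the light chain. They are also printed because H2-K1 and H2-D1 differed in the Ras -/- group. Whether the stretches bear on that difference was not tested. H2-K1 was read from chr17:34000334-34000468 on the minus strand, H2-D1 from chr17:35262913-35263047 on the plus strand and B2m from chr2:122147537-122147646 on the plus strand, each 5′ to 3′ along its gene. Capitals mark the kappaB site and the inverted CCAAT boxes on either strand in H2-K1 and H2-D1, and the ISRE core and the inverted CCAAT box in B2m.
H2-K1: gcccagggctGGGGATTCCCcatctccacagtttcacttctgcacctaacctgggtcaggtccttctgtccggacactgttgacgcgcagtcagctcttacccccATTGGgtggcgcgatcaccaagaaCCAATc
H2-D1: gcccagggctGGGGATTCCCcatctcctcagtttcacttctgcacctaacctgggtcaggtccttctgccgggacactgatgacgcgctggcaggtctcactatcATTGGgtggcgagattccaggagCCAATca
B2m: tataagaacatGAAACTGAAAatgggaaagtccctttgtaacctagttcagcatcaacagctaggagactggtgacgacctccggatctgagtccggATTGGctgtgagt

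The H2-K1 and H2-D1 stretches were 87.5% identical, with 119 identical bases, 15 mismatches and 2 gap bases. Both hold the kappaB site, which occurs in 0.107% of all 32851 RefSeq windows of this length, and both hold the CCAAT box once on each strand. The inverted CCAAT box is common, with a match in 37.4% of windows. The ISRE core matched in B2m, and in 3.44% of all windows. Of the other genes, Psmb8 had a GAS match (8.30% of all windows), Tap1, Tapbp and Psmb9 had inverted CCAAT boxes, and Psmb10 had no match to the 4 motifs. No match says only that these letters are not in this window.

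**Figure D1:**
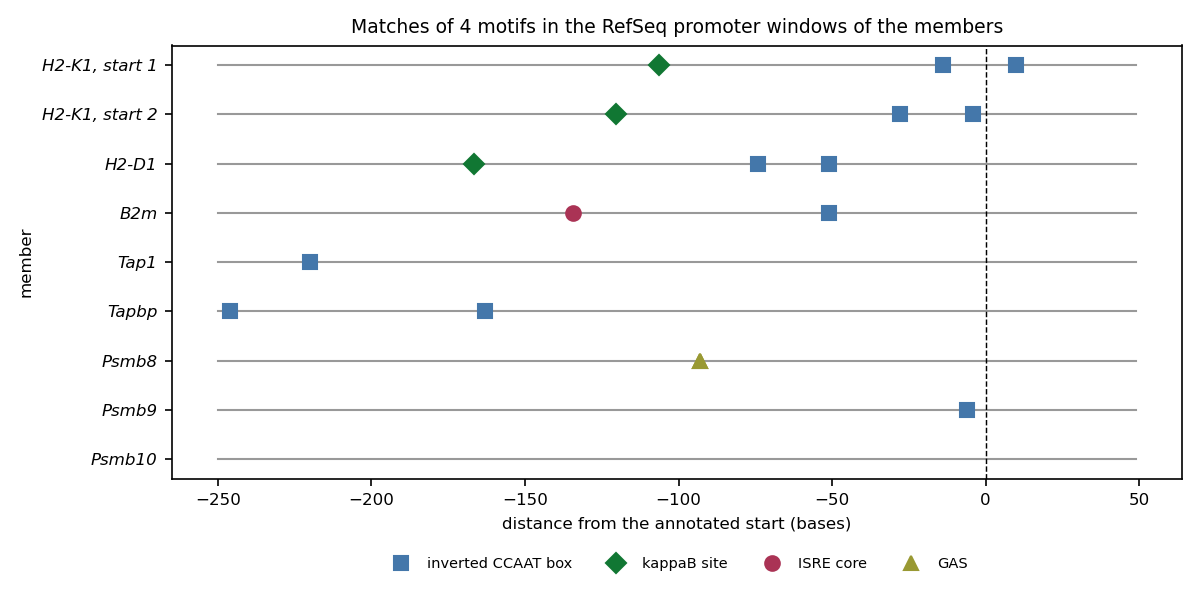
Positions of matches to 4 motifs, as distance in bases from the annotated start (dashed line), in the RefSeq windows of 8 members; H2-K1 has 2 annotated starts. Grey lines show the windows, and symbols show the middle of each match. The kappaB site and a pair of CCAAT boxes stand in the same order in H2-K1 and H2-D1.

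The deposited tables hold comparisons against +/+ and no values for single libraries, so each level below is 1 value per group. It is in RPM (reads of a gene per 1000000 reads), computed here from each concentration and ratio in the tables. Each group had 11.4 to 13.95 M reads in all (M, 1000000 reads), and a level comes with the 95% Poisson interval of its reads where it is low. Folds are log2 ratios of the named group over +/+. Each standard error (SE) is implied by the read counts and by the common dispersion of its comparison rather than observed between libraries of that gene. Genes were tested where their mean level was at least 1 RPM. A gene is called where the deposited edgeR p, adjusted by Benjamini and Hochberg's method over all genes tested, is under 0.05. Levels of the 2 sets were normalized apart and are not compared between sets.

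Usp28 transcript was found in every group, from 9.96 to 16.5 RPM in the immortalized set and from 14.8 to 26.5 RPM in the Ras set. It was lower in Ras -/- than in +/+ (-0.83, adjusted p = 0.004) but still present, and the group labelled as carrying the USP28 vector had 26.4 RPM against 26.5 RPM, so its level does not check the labels and the USP28 group is named by its label alone. Fibroblast markers were high, with a summed level of 40785 to 51921 RPM in the immortalized set and 11324 to 19805 RPM in the Ras set, although Thy1 had 0 to 7 reads in the Ras groups. Summed epithelial and mesothelial markers were 29.2 RPM in immortalized +/+, 1758 RPM in +/- and 14.6 RPM in -/-. In the Ras set they were 426 RPM in +/+, 2431 RPM in +/-, 7.45 RPM in -/- and 467 RPM with USP28. The sex-linked transcripts also differed between groups: Ras +/+ cells had 336 RPM of Xist and 0 reads of Eif2s3y, and Ras -/- cells had 3 reads of Xist and 22.4 RPM of Eif2s3y. In the immortalized set, +/- cells had 0 reads of Eif2s3y, against 18.6 RPM in +/+. The part of these markers in the results below was not tested. RNA was measured in bulk, so fewer cells expressing a gene and less of its RNA per cell cannot be told apart. Libraries were made with either of 2 kits, and which library had which kit is not given in the sources used here.

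In Ras-transformed -/- cells B2m, H2-D1, Tap1, Tapbp, Psmb10 and Nlrc5 rose against Ras +/+ cells, H2-K1 and Tap2 were not called, and Psmb8 was not detectable beyond 1 read. The levels were 1.94 to 3.06 times those of +/+ for B2m, H2-D1, Tapbp and Psmb10, and the low genes Tap1 and Nlrc5 showed larger ratios. Ras +/- cells differed from +/+ in another way: H2-K1, H2-D1 and B2m fell, and Tapbp and Psmb10 rose, in the group with 2431 RPM of epithelial and mesothelial markers. With the USP28 vector no member was called. In the immortalized set Tapbp fell in -/- cells, and Tap2 and Psmb8 fell in +/- cells.

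**Figure D2:**
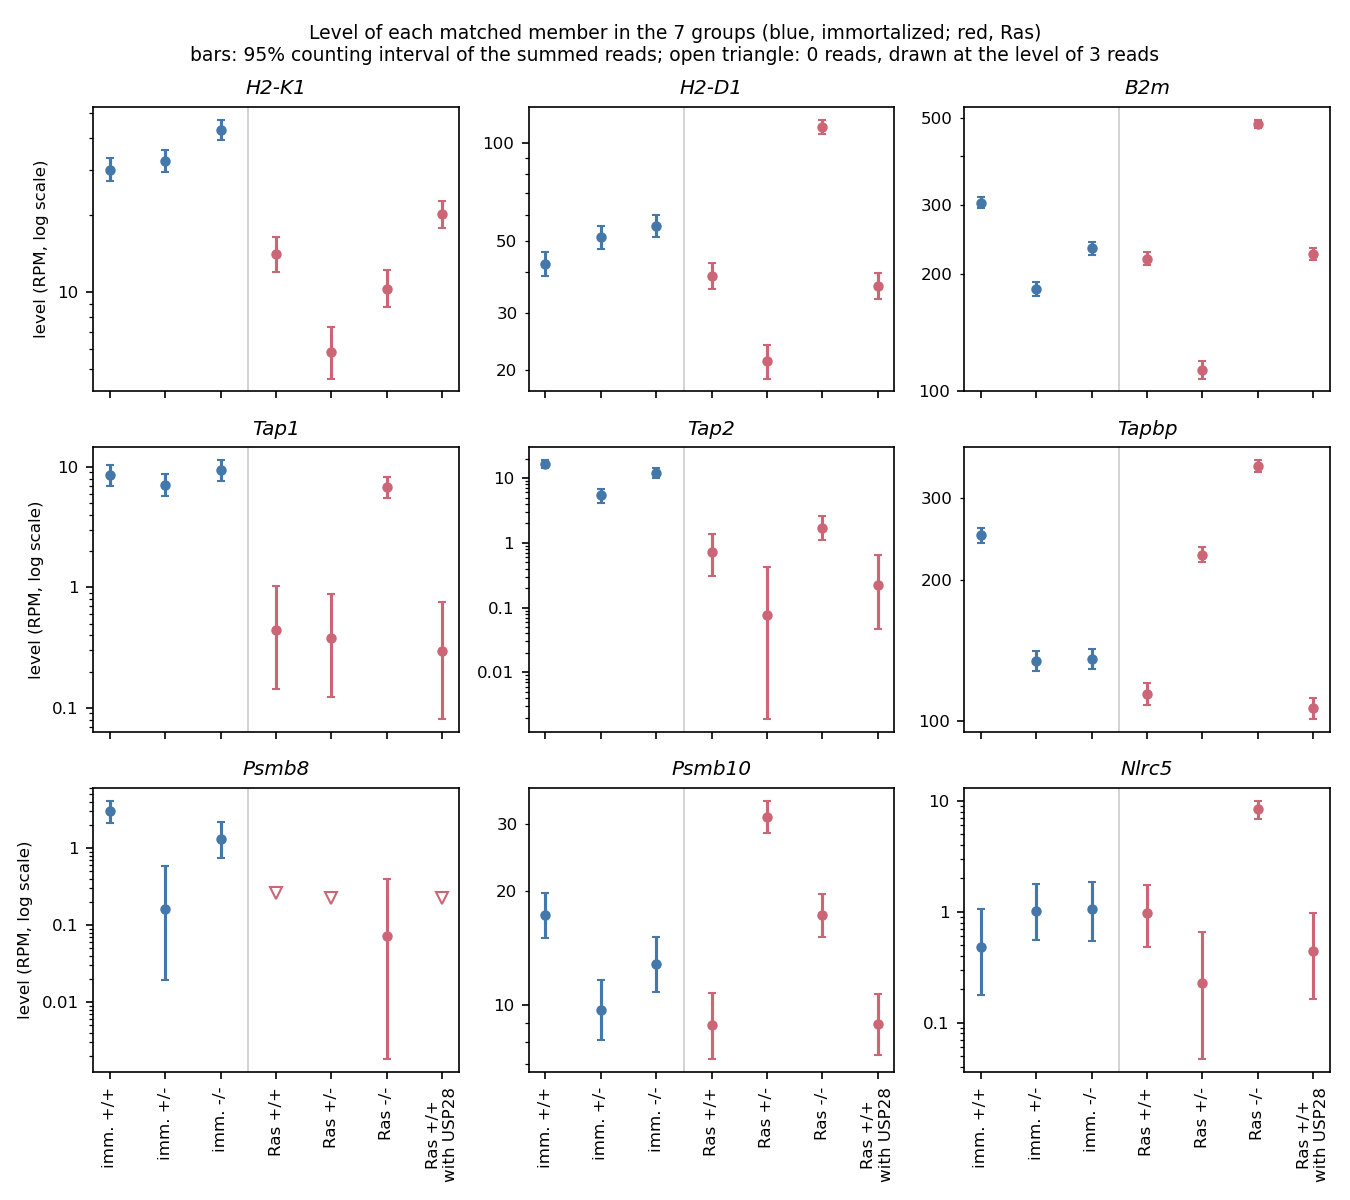
Level (RPM, log scale) of each of the 9 matched members in the 7 groups, with 95% counting intervals of the summed reads; blue, immortalized; red, Ras. Open triangles mark 0 reads, drawn at the level of 3 reads. In the Ras set the -/- group is highest for H2-D1, B2m, Tap1, Tap2, Tapbp and Nlrc5, the +/- group for Psmb10, and the USP28 group for H2-K1.

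H2-K1 encodes a classical class I heavy chain (ENSMUSG00000061232, chr17:33996017-34000347, minus strand, GRCm38). In the Ras set it measured 14.0 RPM in +/+, 5.82 RPM in +/-, 10.3 RPM in -/- and 20.2 RPM with USP28. The +/- group was lowest and the USP28 group highest, and -/- lay below +/+. The fall in +/- was -1.27 (SE 0.29, adjusted p = 5.5e-05). The -/- value of -0.44 (95% interval -0.96 to 0.08, adjusted p = 0.225) and the USP28 value of 0.53 (SE 0.23, adjusted p = 0.893) were not called. Immortalized levels of H2-K1 were 30.1, 32.6 and 43.1 RPM for +/+, +/- and -/-, and neither comparison was called (0.12, adjusted p = 1, and 0.52, adjusted p = 0.343).

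H2-D1 encodes the other classical heavy chain listed (ENSMUSG00000073411, chr17:35262730-35267499, plus strand). Its Ras levels were 39.0 RPM in +/+, 21.2 RPM in +/-, 112 RPM in -/- and 36.3 RPM with USP28. The -/- group stood far above the others and +/- was lowest, while the USP28 group was close to +/+. H2-D1 rose in -/- by 1.52 (SE 0.22, adjusted p = 2.1e-10), which is 2.87-fold, and fell in +/- (-0.88, SE 0.23, adjusted p = 0.00087). With USP28 it was at -0.10 (95% interval -0.51 to 0.30). Without Ras the levels were 42.5, 51.2 and 55.5 RPM for +/+, +/- and -/-, and neither ratio was called (0.27, adjusted p = 1, and 0.38, adjusted p = 0.557).

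The 2 heavy chains moved apart in Ras -/- cells. The log2 ratio of H2-D1 minus that of H2-K1 was 1.96 (95% interval from the implied errors, 1.29 to 2.64) in Ras -/-. It was 0.39 (-0.33 to 1.11) in Ras +/-, -0.63 (-1.24 to -0.02) with USP28, -0.14 (-0.87 to 0.60) in immortalized -/- and 0.15 (-0.94 to 1.24) in immortalized +/-. This pair was chosen after its values were seen, so no p is given. Reads can be shared between heavy chains: in the GENCODE vM21 transcripts, 17.9% of the 36-base stretches of H2-K1 and 23.3% of those of H2-D1 also occur in another gene, and 1.43% and 6.91% of the 76-base stretches do. The read length is not given in the sources used here. Both genes are therefore uncertain as far as reads of near-identical heavy chains were split or dropped.

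B2m encodes the light chain that all class I heavy chains need to reach the cell surface (ENSMUSG00000060802, chr2:122147686-122153083, plus strand). It measured 219 RPM in Ras +/+, 114 RPM in +/-, 484 RPM in -/- and 224 RPM with USP28. The order was that of H2-D1 at its ends, with -/- highest and +/- lowest, and the +/+ and USP28 groups lay side by side. It rose in -/- by 1.14 (SE 0.21, adjusted p = 8.3e-07) and fell in +/- (-0.95, SE 0.21, adjusted p = 4.9e-05), and with USP28 the value was 0.04 (95% interval -0.33 to 0.40). The immortalized groups had 304 RPM (+/+), 183 RPM (+/-) and 232 RPM (-/-). Both were below +/+ without a call (-0.73, adjusted p = 0.372, and -0.39, adjusted p = 0.524). Patl2 on the opposite strand encloses B2m without sharing exonic bases in vM21, and its level was 100.8% to 102.2% of that of B2m in the 7 groups, so reads of the 2 genes cannot be told apart in these tables.

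Tap1 encodes an ATP-driven subunit of the peptide transporter (ENSMUSG00000037321, chr17:34187553-34197225, plus strand). It had 5 reads in Ras +/+, 5 in +/- and 4 with USP28 (0.440, 0.378 and 0.298 RPM), against 95 reads or 6.81 RPM in -/- (95% counting interval 5.51 to 8.32). Only the -/- group was above 1 RPM, so Tap1 passed the filter through the group in which it was high. Its log2 ratio there was 3.95 (SE 0.67, adjusted p = 1.6e-12). Immortalized Tap1 levels were 8.50, 7.12 and 9.41 RPM for +/+, +/- and -/-, and Tap1 was not called (-0.24 and 0.15).

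Tap2 encodes the partner subunit (ENSMUSG00000024339, chr17:34203527-34216321, plus strand). In the Ras set it had 8 reads in +/+, 1 in +/-, 24 in -/- and 3 with USP28, that is 0.715, 0.0757, 1.72 and 0.223 RPM. The -/- group was highest but not called (1.27, SE 0.61, adjusted p = 0.139). The ratio of the 1 read in +/- to +/+ was -3.24, with a 95% counting interval of -8.69 to -0.32, and was not tested at this depth. Immortalized Tap2 levels were 16.4 RPM (+/+), 5.40 RPM (+/-) and 12.1 RPM (-/-). It fell in +/- (-1.59, SE 0.43, adjusted p = 0.004), a call that was lost with a doubled dispersion (adjusted p = 0.0958), and was at -0.44 in -/- (adjusted p = 0.589). Antisense genes overlap its exons, Gm15821 by 533 bases and Gm20496 by 165 bases. In immortalized +/+, +/- and -/- Gm15821 had 6.63, 1.46 and 4.62 RPM, and Gm20496 had 3.81, 0.477 and 2.36 RPM. How far Tap2 shares reads with them was not tested.

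Tapbp encodes tapasin (ENSMUSG00000024308, chr17:33915899-33929292, plus strand). It measured 114 RPM in Ras +/+, 227 RPM in +/-, 351 RPM in -/- and 106 RPM with USP28. The +/- and -/- groups were both above +/+, and the USP28 group was next to +/+. The log2 ratios were 1.62 in -/- (SE 0.21, adjusted p = 1.8e-12), 0.99 in +/- (SE 0.21, adjusted p = 2.3e-05) and -0.10 with USP28 (95% interval -0.48 to 0.27). The order was turned without Ras, with 249 RPM (+/+), 134 RPM (+/-) and 136 RPM (-/-). The fall in -/- was called (-0.88, SE 0.25, adjusted p = 0.0176), but not with a doubled dispersion (adjusted p = 0.339), and the value in +/- (-0.89, SE 0.38, adjusted p = 0.182) was not. Tapbp shares 149 exonic bases with Zbtb22, at 31.2 to 43.8 RPM over the groups, and 904 with the antisense gene Gm19412, which was not analysed here.

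Psmb8 encodes an immunoproteasome subunit (ENSMUSG00000024338, chr17:34197721-34201454, plus strand). It had 0 reads in Ras +/+, +/- and with USP28, and 1 read in -/-. A count of 0 allows up to 3 reads, which is 0.264, 0.227 and 0.223 RPM in those groups, so a difference was not detectable in the Ras set. Among immortalized cells it had 37 reads (3.03 RPM) in +/+, 2 reads (0.161 RPM) in +/- and 15 reads (1.31 RPM) in -/-. Psmb8 fell in +/- (-4.22, adjusted p = 4.8e-05, 95% counting interval -7.32 to -2.26), where it passed the filter through the +/+ group, in which it was high. Its value of -1.21 in -/- was not called (SE 0.50, adjusted p = 0.183). The antisense gene Gm20496 overlaps 498 of its exonic bases and had 3.81, 0.477 and 2.36 RPM in the same 3 groups.

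Psmb10 encodes another immunoproteasome subunit (ENSMUSG00000031897, chr8:105935735-105938444, minus strand). Its Ras levels were 8.91 RPM in +/+, 31.3 RPM in +/-, 17.3 RPM in -/- and 8.94 RPM with USP28. Here +/- was the highest group, -/- lay between, and the USP28 and +/+ groups had nearly the same level. It rose in +/- by 1.81 (SE 0.26, adjusted p = 3.7e-11) and in -/- by 0.95 (SE 0.27, adjusted p = 0.0028). The immortalized levels were 17.2, 9.76 and 12.8 RPM for +/+, +/- and -/-, without a call (-0.82, adjusted p = 0.348, and -0.43, adjusted p = 0.594). The antisense gene Gm16156 spans Psmb10 without sharing exonic bases, and its level was 65.4 to 107 RPM over the 7 groups.

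Nlrc5 encodes the activator that binds class I promoters with other factors (ENSMUSG00000074151, chr8:94434356-94527272, plus strand). It had 11 reads in Ras +/+ (0.966 RPM), 3 in +/- (0.227 RPM), 117 in -/- (8.39 RPM) and 6 with USP28 (0.447 RPM). The -/- group alone exceeded 1 RPM in the Ras set, with a counting interval of 6.94 to 10.05 RPM. Its ratio in -/- was 3.12 (SE 0.49, adjusted p = 4.4e-12), and it passed the filter through that group. The immortalized levels, 0.486, 1.01 and 1.06 RPM in +/+, +/- and -/-, rest on 6, 13 and 12 reads and were not tested.

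Set against all genes, 6 of the 8 members tested in Ras -/- were called higher and 0 lower, where 15.2% of 15868 genes were called higher and 12.4% lower. Tap1, Tap2 and Nlrc5 were tested there only through their -/- level. Among the 5 members with at least 1 RPM in each group, a filter chosen after seeing the data, 4 were called, all higher. Under it 3602 genes were called in either direction, against 4381 under the main filter. The share of all genes under that filter is not given here. The members' median log2 ratio (0.5 reads added) was 1.29 over the 9 matched genes, which is the value of Psmb8 with its 1 read against 0, and 1.37 over the 8 genes without Psmb8. It was -0.01 over all genes tested. In Ras +/-, 2 of 5 members tested were higher and 3 lower, with 17.5% and 16.7% of 15950 genes called, and the median was -0.88 beside 0.01. In immortalized -/- cells 0 of 8 were higher and 1 lower (1.29% and 2.93% of all genes; median -0.39 beside 0.07). In immortalized +/- cells 0 of 8 were higher and 2 lower (5.04% and 3.21% of all genes; median -0.73 beside -0.00). Psmb8 was tested in immortalized +/- only through its +/+ level. With at least 1 RPM in each group 1 of 7 members was called there, Tap2, and 912 genes in all, against 1406 under the main filter. Without Psmb8 the immortalized medians were -0.12 in -/- and -0.49 in +/-. With USP28, 0 of 5 were called in either direction by the adjusted edgeR p, beside 0.0907% of genes higher and 0.997% lower. There 1 member, H2-K1, had an unadjusted edgeR p under 0.05 (0.0286), and 0 were called by the adjusted p that the authors deposited. The median with USP28 was -0.10 over the 9 matched members and 0.004 over the 5 tested, beside 0.01 over all genes tested. The comparisons within a set share the +/+ libraries.

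**Figure D3:**
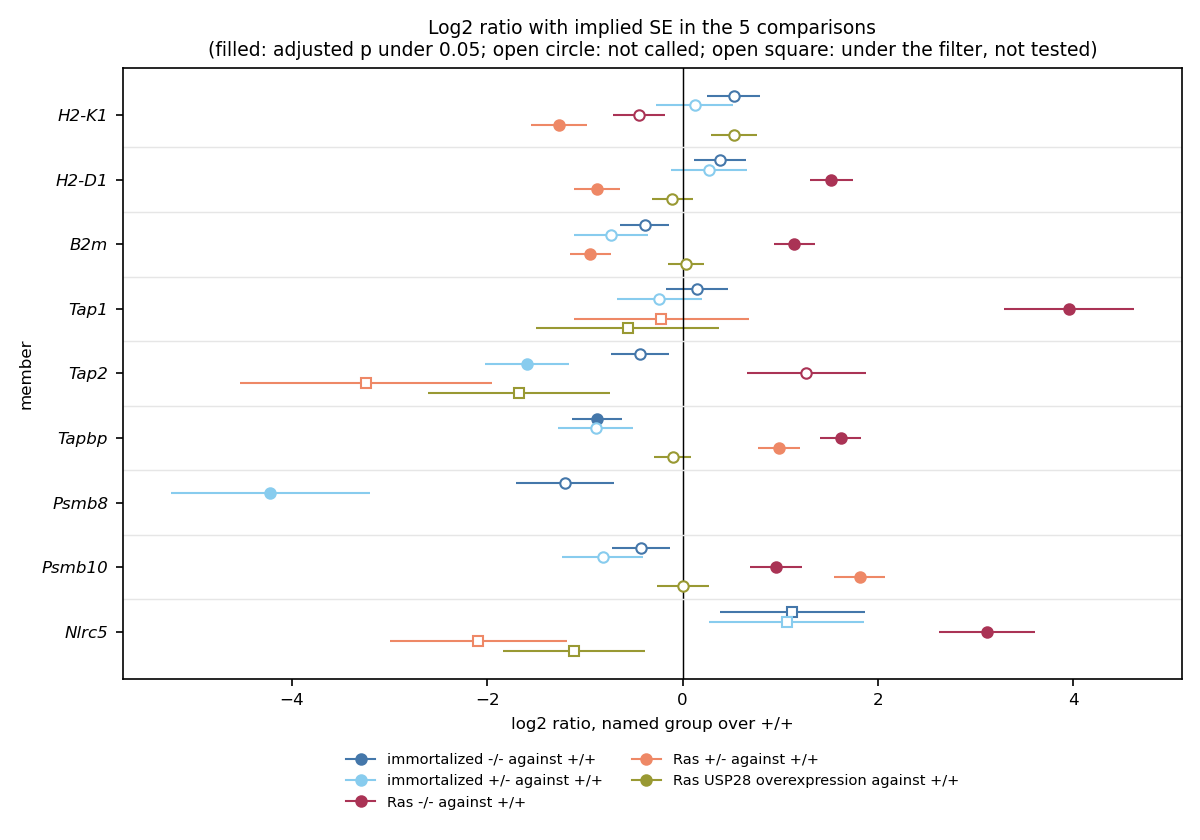
Log2 ratio of the named group over +/+ with implied SE for the 9 matched members in 5 comparisons. Filled symbols were called at an adjusted p under 0.05, open circles were tested and not called, and open squares were under the filter. The Ras -/- points of H2-D1, B2m, Tap1, Tapbp, Psmb10 and Nlrc5 are filled and to the right of 0, and Psmb8 has no ratio in the Ras set because +/+ had 0 reads.

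Whether -/- and +/- cells differed from each other was tested on the difference of their log2 ratios with an approximate Wald test. In the Ras set -/- was above +/- for H2-D1 (2.40, SE 0.31, adjusted p = 2.4e-13) and B2m (2.09, SE 0.30, adjusted p = 4.7e-11) and below it for Psmb10 (-0.86, SE 0.31, adjusted p = 0.0347). The Psmb10 call was lost with a doubled dispersion (adjusted p = 0.234) and without the filter (adjusted p = 0.0606). Of 5 members tested, 2 were thus higher and 1 lower, beside 11.3% and 9.54% of all genes. H2-K1 (0.82, 95% interval 0.12 to 1.52, adjusted p = 0.0848) and Tapbp (0.63, 95% interval 0.05 to 1.21, adjusted p = 0.117) were not called. Tap1, Tap2 and Nlrc5 were under the filter in Ras +/- and were called without it, which makes 5 members called in all.

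In the immortalized set, 0 of 8 members differed between -/- and +/- by the adjusted Wald p, beside 1.27% of genes higher and 2.19% lower. Here 2 members had an unadjusted p under 0.05, Tap2 (1.16, 95% interval 0.17 to 2.14, adjusted p = 0.311) and Psmb8 (2.76, 95% interval 0.63 to 4.88, adjusted p = 0.194). Tapbp stood at nearly the same level in both, with a difference of 0.01 (95% interval -0.89 to 0.91).

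Against +/+ cells with USP28, Ras -/- cells had more H2-D1 (1.63, SE 0.29), B2m (1.11, SE 0.28), Tapbp (1.72, SE 0.28) and Psmb10 (0.95, SE 0.32) and less H2-K1 (-0.96, SE 0.31, adjusted p = 0.0173). These were 4 higher and 1 lower of 5 tested, beside 9.28% and 7.17% of genes. With a doubled dispersion the calls of H2-K1 (adjusted p = 0.167), B2m (adjusted p = 0.0533) and Psmb10 (adjusted p = 0.188) were lost, leaving 2. Without the filter 8 were called. Ras +/- cells had more Tapbp (1.09, SE 0.28) and Psmb10 (1.80, SE 0.31) than the USP28 group and less H2-K1 (-1.79, SE 0.33), H2-D1 (-0.77, SE 0.30, adjusted p = 0.0448) and B2m (-0.98, SE 0.28). That is 2 higher and 3 lower of 5 tested, beside 9.76% and 10.9% of genes. The H2-D1 call was lost with a doubled dispersion (adjusted p = 0.266) and without the filter (adjusted p = 0.0802), and the B2m call with a doubled dispersion (adjusted p = 0.0871).

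The log2 ratio over +/+, here called the genotype effect, was also compared between the sets. It cannot be told apart from a difference between lines. Ras +/+ cells had 336 RPM of Xist and 0 reads of Eif2s3y, and Ras -/- cells 3 reads and 22.4 RPM. Immortalized +/+ cells had 89.7 RPM of Xist and 18.6 RPM of Eif2s3y, and immortalized -/- cells 126 and 14.9 RPM. The -/- effect in the Ras set exceeded that in the immortalized set for 5 of 7 members tested, H2-D1, B2m, Tap1, Tapbp and Psmb10, and was lower for 0, beside 11.4% and 9.24% of genes. Tap1 and Tap2 were tested only through their Ras -/- level, and among the 5 members with at least 1 RPM in each group 4 were called. Under that filter 2568 genes were called in all, against 3117 under the main filter, and the share is not given here. H2-K1 differed in the other direction without a call (-0.96, 95% interval -1.70 to -0.22, adjusted p = 0.0511), and Tap2 was not called (1.65, adjusted p = 0.0658). The H2-D1 (adjusted p = 0.111) and Psmb10 (adjusted p = 0.0619) calls were lost with a doubled dispersion, which left 3. For +/-, 2 of 5 members had the higher effect in the Ras set, Tapbp and Psmb10, and 1 had the lower, H2-K1, beside 6.89% and 6.46% of genes. The H2-K1 call was lost with a doubled dispersion (adjusted p = 0.262) and without the filter (adjusted p = 0.0737).

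Other class I heavy chains numbered 26 in the list, of which 22 have a line in the tables. In Ras -/-, 6 of 13 tested were higher and 2 lower, beside 15.2% and 12.4% of all genes. Those with the smallest adjusted p were Fcgrt, the neonatal Fc receptor, which pairs with B2m (7.11 to 37.8 RPM; 2.41, SE 0.27), H2-Q6 (0.876 to 4.37 RPM, tested through its -/- level; 2.32, SE 0.53), the iron regulator Hfe (1.96, SE 0.45) and H2-Q4 (1.37, SE 0.37). H2-M3 (0.529 to 1.94 RPM), another of the 6, was likewise tested through its -/- level. The 2 lower ones, named after their values were seen, were Mr1, which presents vitamin B metabolites (-1.54, SE 0.46), and H2-T24 (-1.01, SE 0.36). In Ras +/-, 1 of 11 was higher, H2-M3 (2.55, SE 0.64; tested through its +/- level), and 4 were lower (17.5% and 16.7% of all genes), among them H2-T22 (-0.71, SE 0.23), H2-Q7 (-1.80, SE 0.61) and H2-Q10 (-1.69, SE 0.58). With USP28, 0 of 12 were called, beside 0.0907% of all genes higher and 0.997% lower. In immortalized +/-, H2-T23, the Qa-1 molecule read by NK cells, rose from 7.57 to 21.7 RPM (1.52, SE 0.42), and Fcgrt and Hfe fell (-2.13 and -1.44). That is 1 higher and 2 lower of 15 tested, beside 5.04% and 3.21% of all genes. In immortalized -/-, 1 of 15 was lower, Fcgrt (-1.79, SE 0.27), beside 2.93% of all genes. Many of these genes are near-identical to each other, so the share of reads each received is uncertain.

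In the loading and trimming list of 15 genes, 2 were higher in Ras -/- and 0 lower, beside 15.2% and 12.4% of all genes. The 2 were Erap1, the peptidase that trims peptides in the endoplasmic reticulum (12.8 to 58.2 RPM, log2 ratio 2.18, SE 0.24), and Tapbpl, a peptide editor related to tapasin (1.21, SE 0.29). The general chaperones of the loading complex were not called there, with Calr at -0.03, Canx at 0.08 and Pdia3 at 0.13. In Ras +/-, 3 were higher and 2 lower, beside 17.5% and 16.7% of all genes. Among those called were Erap1 (1.25, SE 0.25), Sec61g (1.05, SE 0.25), Ganab (0.59, SE 0.21) and Nrd1 (-0.91, SE 0.21). None of the 15 was called with USP28 or in the immortalized set by the adjusted edgeR p. Of all genes, 0.0907% were higher and 0.997% lower with USP28. The shares were 1.29% and 2.93% in immortalized -/- and 5.04% and 3.21% in immortalized +/-.

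Of the proteasome activators, the PA28 subunits Psme1 and Psme2 rose in both Ras -/- (1.40, SE 0.24, and 1.27, SE 0.26) and Ras +/- (1.25, SE 0.24, and 1.20, SE 0.25). Psme1 went from 16.8 RPM in +/+ to 44.4 RPM in -/- and 39.8 RPM in +/-. Psme3, which forms a nuclear activator, fell in Ras -/- (-0.67, SE 0.21), and Psme4 and the assembly factor Pomp were not called in either. Of these 5 genes, 2 were higher and 1 lower in Ras -/-, beside 15.2% and 12.4% of all genes. In Ras +/- 2 were higher and 0 lower, beside 17.5% and 16.7% of all genes. The constitutive catalytic subunits Psmb5, Psmb6 and Psmb7, which the immunoproteasome subunits replace, were not called in any of the 5 comparisons. Their log2 ratios in Ras -/- were 0.01, -0.39 and -0.34. These are 0 of 3 genes, beside 0.0907% to 17.5% of all genes called in each direction over the 5 comparisons.

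**Figure D4:**
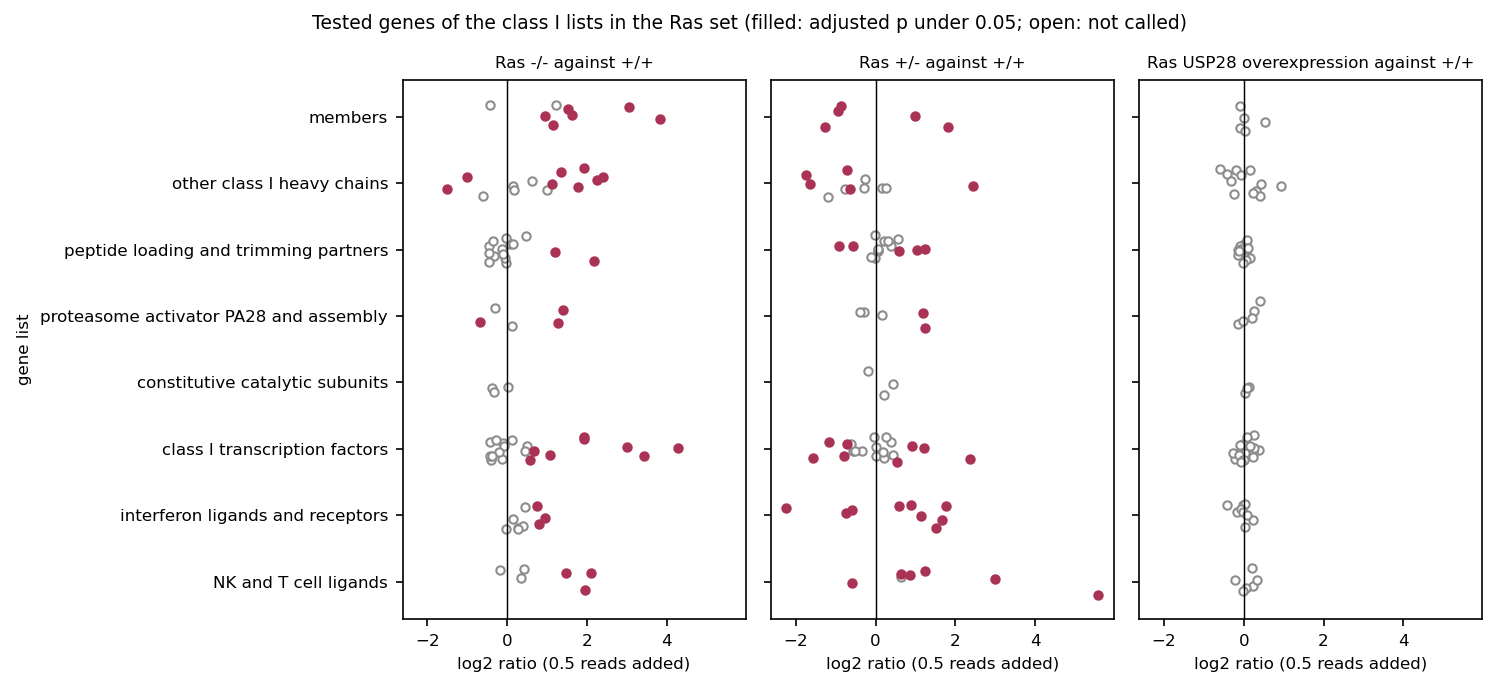
Log2 ratios over +/+ (0.5 reads added) in the Ras set for the tested genes of 8 lists, 1 point per gene, spread vertically for legibility. Filled points were called at an adjusted p under 0.05. In the USP28 comparison no point is filled, and the 3 constitutive catalytic subunits are open in all 3 panels.

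Among 20 tested transcription factors known to act on class I genes, 8 were higher in Ras -/- and 0 lower, beside 15.2% and 12.4% of all genes. Among those with the smallest adjusted p were Irf7 (3.41 to 66.7 RPM; 4.29, SE 0.31), Stat2 (22.6 to 244 RPM; 3.43, SE 0.23) and Irf9 (1.91, SE 0.23), which carry interferon signals to ISRE sequences. In Ras +/-, 4 were higher and 4 lower, near the shares of all genes (17.5% and 16.7%). Irf1, which binds ISRE sequences too, rose from 10.2 to 53.1 RPM (2.37, SE 0.25), Rfx5, a partner of Nlrc5, rose (1.22, SE 0.26), Nfkb2 rose (0.91, SE 0.21) and Irf9 fell (-1.17, SE 0.26). Irf1 and Rfx5 were also higher in Ras -/- (1.93 and 1.08). None of the 20 was called with USP28 or in the immortalized set. Of all genes, 0.0907% were higher and 0.997% lower with USP28. The shares were 1.29% and 2.93% in immortalized -/- and 5.04% and 3.21% in immortalized +/-.

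In the list of interferon ligands, receptors and their signalling genes, 3 of 9 tested were higher in Ras -/-, beside 15.2% of all genes. These were the kinase Tyk2 (0.95), the feedback inhibitor Socs3 (0.79) and the receptor chain Ifngr2 (0.74). In Ras +/-, 6 were higher and 3 lower, beside 17.5% and 16.7% of all genes. Among those called were the kinases Jak2 (1.78) and Tyk2 (1.52), Ifngr2 (1.68) and the feedback inhibitor Socs1 (-2.25). The ligand Ifnb1 had 0 or 1 read in each group and Ifng had 0. In immortalized -/- cells 1 was lower, Socs1 (-1.13), beside 2.93% of all genes. In immortalized +/- cells 2 were lower, Socs1 (-1.96) and Socs3 (-1.25), beside 3.21% of all genes. Of the ligands of NK and T cells, 3 of 6 tested were higher in Ras -/-, beside 15.2% of all genes: Fas (2.11), Cd47 (1.47) and Raet1d (1.96). In Ras +/-, 5 of 7 were higher and 1 lower, beside 17.5% and 16.7% of all genes. Among those called were Fas (3.03), Cd47 (1.23) and H60b (0.64). In immortalized +/-, 2 of 7 were higher, Raet1e (1.40) and H60b (1.28), beside 5.04% of all genes.

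Markers of cells that carry the class I pathway at high level were low. The summed level of 16 matched leukocyte markers was 20.4 RPM in Ras +/+, 37.8 RPM in +/-, 25.4 RPM in -/- and 23.02 RPM with USP28, and 21.7, 22.3 and 37.5 RPM in immortalized +/+, +/- and -/-. Cd3e had 0 reads in all groups, and Ptprc had 0 to 3. Of these markers, 1 of 4 tested was higher in Ras -/- (Cd14, 1.29), beside 15.2% of all genes. In Ras +/- 2 of 4 were higher (Cd14, 2.66, and Cd68, 2.00), beside 17.5%, and in immortalized -/- 1 of 5 (Lyz2, 3.40), beside 1.29%. The 11 class II pathway genes summed to 2.20 RPM in Ras +/+ and 6.74 RPM in -/-, of which Cd74 was 4.52 RPM. Of 2 class II genes tested there, 1 was called higher, Cd74 (3.37, SE 0.67), beside 15.2% of all genes. Cd74 was tested through its -/- level, and its activator Ciita had 4 and 6 reads. Of the endothelial markers, 0 of 2 tested in Ras -/- were called, beside 15.2% of all genes higher and 12.4% lower. In Ras +/- 0 of 3 were called (17.5% and 16.7% of all genes), and with USP28 0 of 3 (0.0907% and 0.997%). In immortalized -/- 1 of 2 tested, Tek, was higher (1.19), beside 1.29% of all genes.

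Of 14489 genes outside the list that were tested in all 5 comparisons, the 10 nearest to the median profile of the 9 matched members, by Euclidean distance over the 5 log2 ratios, were Patl2 (0.20), Lamb2, a laminin chain (0.35), Chpt1 (0.36), Rora (0.36), Tmem231 (0.39), Arhgap33 (0.45), Mfge8 (0.48), Gm2415 (0.52), Shf (0.53) and Nab2 (0.54). In Ras -/- that profile takes the value of Psmb8, which had 1 read against 0. With the profile of the 8 members without Psmb8, 2 of the 10 remained, Patl2 (0.43) and Chpt1 (0.26), so the other names depend on that choice. Reads of Patl2 cannot be told apart from those of B2m.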

How the data were processed

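Per the submitters' processing notes, the authors used CASAVA and FastQC, aligned reads to mm9 with Bowtie 0.12.8 and compared groups with edgeR. The counter and annotation are not given in the sources used here. Per the file headers, the deposited tables give for each comparison a log2 concentration, a log2 ratio with +/+ as numerator and a p-value, plus an adjusted p-value in the Ras set. They hold 0 columns of single libraries. The 35 repeated lines of the immortalized table and the 24 of the Ras table were dropped, and 86.9% and 97.6% of IDs have a GENCODE vM21 symbol.

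Depth was read from the 1-read steps of low levels. With it, between 79.6% and 100% of low values (under 20 reads) came out whole to within 0.1. This precision is that of counting error only. A common dispersion per comparison was chosen so that computed p-values matched those deposited, equal to a coefficient of variation of 12.6% to 14.4% in the Ras set, 21.1% in immortalized -/- and 32.3% in immortalized +/-. Genes that vary more have errors that are too small. Differences between comparisons were tested with a Wald test after 0.5 reads were added to each group. Differences within a set gave each group the dispersions of both comparisons. The scripts were tested on simulated data.

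The members and the 12 other lists were chosen with earlier results of these data known. The text names every member in each comparison, lists of up to 5 tested genes in full, otherwise the 4 smallest adjusted p, and the 10 nearest genes; genes that fall outside this rule were chosen after their values were seen. Some genes of the lists are not reported here by name. Alternatives were other filters, a doubled dispersion, centred ratios, other thresholds, 2 reads added and the authors' own adjusted p, and, chosen after seeing the data, at least 1 RPM in each group and a profile without Psmb8. Python 3.11.15, pandas 2.3.3, numpy 2.4.6 and scipy 1.17.1 were used. Coordinates are those of GRCm38, not of the authors' mm9.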

Additional observations from a re-analysis of the deposited data

Results flagged for a closer look

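The log2 ratio over +/+ differed between the Ras and the immortalized set for several members by the adjusted Wald p. For -/-, 5 of 7 members tested were higher in the Ras set and 0 lower, beside 11.4% and 9.24% of all genes. For +/-, 2 of 5 were higher and 1 lower, beside 6.89% and 6.46% of all genes. For -/-, the Ras value minus the immortalized value was 1.14 for H2-D1 (adjusted p = 0.0074) and 1.53 for B2m (adjusted p = 4.5e-05). It was 2.49 for Tapbp (adjusted p = 2.3e-12), 1.37 for Psmb10 (adjusted p = 0.0046) and 3.68 for Tap1 (adjusted p = 1.1e-05). Tap1 was tested only through its Ras -/- level. For +/-, the Ras value minus the immortalized value was -1.39 for H2-K1 (adjusted p = 0.0367), 1.88 for Tapbp (adjusted p = 0.00036) and 2.62 for Psmb10 (adjusted p = 2.9e-06). With a doubled dispersion the -/- calls of H2-D1 (adjusted p = 0.111) and Psmb10 (adjusted p = 0.0619) were lost. The +/- call of H2-K1 was lost with a doubled dispersion (adjusted p = 0.262) and without the filter (adjusted p = 0.0737). In Tapbp the -/- ratio was 1.62 in the Ras set and -0.88 in the immortalized set. The sets were normalized apart, and each ratio is within its own set. A genotype and a line cannot be told apart in either set.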

How the results depend on the processing

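No paired analysis was possible because the tables hold no values for single libraries, and for the same reason leaving out a library and DESeq2 were not run. Of 57 alternative counts of called members, 47 stayed within 1.5 times the main count. With a doubled dispersion the count went from 1 to 0 in immortalized -/-, from 2 to 1 in immortalized +/-, from 5 to 2 in Ras -/- against USP28, from 5 to 3 in Ras +/- against USP28 and from 5 to 3 for the -/- effect in Ras minus immortalized. At an adjusted p under 0.01 it was 0 in immortalized -/-, and with a filter of 5 RPM it was 1 in immortalized +/-, since Psmb8 was no longer tested. It was also 1 there when at least 1 RPM was asked of each group, a filter chosen after seeing the data. Without the filter it rose from 3 to 5 in Ras -/- against +/-, and from 5 to 8 in Ras -/- against USP28, through genes under 1 RPM. Of 172 alternative values of members that were called, 157 kept the call, 15 lost it and 0 changed direction, and the 178 of members that were not called gave no call. The spread of a single gene between libraries was not measured, and Tap1, Tap2, Psmb8 and Nlrc5 are limited by depth in the Ras set.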
